A study of Mus musculus with 6 samples.

Results

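The genes described here encode the translation initiation factors of the mouse, the proteins that bring a ribosome to the start codon of an mRNA. They were taken as the protein-coding rows of the deposited gene table whose symbol begins with Eif1 to Eif6, leaving out the eIF2-alpha kinases (Eif2ak1 to Eif2ak4), which gave 51 of 54660 rows. RNA was sequenced from bone marrow-derived macrophages, cultured from the marrow of C57BL/6 mice aged 6 to 8 weeks and lysed after 6 h with lipopolysaccharide (LPS), a bacterial cell wall component. The study compared 3 libraries of Xbp1M-KO cells (KO) with 3 libraries of Xbp1FL/FL cells (WT), and its title concerns XBP1, STING signalling in macrophages and liver fibrosis. Both genotypes received LPS, so the response to LPS was not analysed here. The name Xbp1M-KO is used in this field for a deletion of Xbp1 in myeloid cells, and Xbp1FL/FL for floxed alleles left intact. The sources used here give neither the Cre driver nor the floxed exon. Nothing in the labels says that a genotype's libraries come from separate animals, so p-values measure a spread between libraries that may be technical.

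Cap-dependent initiation starts with eIF2, a trimer that carries GTP and the initiator methionyl-tRNA to the small ribosomal subunit, aided by eIF1, eIF1A, eIF5 and the large eIF3 complex. The mRNA is brought in by eIF4F, made of the cap-binding protein eIF4E, the scaffold eIF4G and the helicase eIF4A, while 4E-BP proteins hold eIF4E away from eIF4G. The guanine nucleotide exchange factor eIF2B recharges eIF2, and phosphorylation of eIF2 alpha by PERK blocks that step when unfolded proteins build up. XBP1 is the transcription factor of another branch of the same unfolded protein response.

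Library totals ranged from 31976748 to 42448058 counts. Xbp1 itself was at 66.3, 65.5 and 65.6 CPM in KO libraries 1 to 3, against 91.2, 88.2 and 87.5 CPM in WT libraries 1 to 3, where CPM is a gene's count after TMM scaling of the libraries to the same size. Macrophage markers were present in all libraries (10 of 10 tested), 5 higher, 4 lower and 1 not called. They summed to 22874 to 23402 CPM in KO and 40198 to 41615 CPM in WT, but without Lyz2, which was lower in KO (-1.37), the other 9 summed to 11486 to 11590.2 CPM in KO and 10985 to 11199.8 CPM in WT. The 4 neutrophil markers tested, of 8, were all higher in KO, and the 8 summed to 221 to 235 CPM in KO and 166 to 184 CPM in WT. Most of that sum came from S100a8, S100a9 and Camp. Ly6g, Mpo, Cxcr2 and Retnlg had at most 6 counts in any library and were not tested. The 7 stromal markers, 1 higher (Pdgfrb), 4 lower and 2 not called, summed to 237 to 245 CPM in KO and 459 to 472 CPM in WT. Without Acta2 they summed to 85.6 to 93.7 CPM in KO and 119 to 121 CPM in WT. The dendritic cell markers summed to 2.02 to 2.27 CPM in KO and 3.71 to 4.13 CPM in WT, most of it from Xcr1, the only one tested. The mast cell and basophil markers summed to 0.773 to 1.08 CPM in KO and 1.27 to 1.80 CPM in WT, most of it from Mcpt8, while Kit was at 0.391, 0.356 and 0.205 CPM in KO and 0.138, 0.121 and 0.224 CPM in WT. Markers of B, T and NK cells summed to at most 0.241 CPM per list and library, and Ncr1 had no count. The part of these differences in the results below was not tested. In bulk RNA, fewer cells of a type and less RNA per cell cannot be told apart.

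Of the 51 genes, 49 passed the expression filter. Of these, 14 were higher in KO and 22 lower in KO by edgeR's quasi-likelihood test at a Benjamini-Hochberg adjusted p under 0.05, and 13 were not called. Across all 13080 genes tested the same test called 61.3%, with 31.5% higher and 29.8% lower in KO. The initiation factors were thus called in 73.5% of cases, higher in 28.6% and lower in 44.9%. Counts for parts of the set, given below, are to be read beside the same shares of all genes, and each part holds few genes. The KO and WT libraries did not overlap for 37 of the 49 genes, or 75.5%, against 65.9% of all genes. KO lay above WT for 14 of them, against 33.6% of all genes, and below WT for 23, against 32.3% of all genes. The changes were small. Only Eif4e3, Eif4ebp2 and Eif2s2 were called with a change of at least 1.5-fold, which is 6.12% of the 49 genes, against 23.9% of all genes. The median absolute log2 fold change of the called initiation factors was 0.31, against 0.49 for all called genes. The median log2 fold change (KO over WT) of the 49 was -0.09, with 0.00 for all genes. When libraries were scaled by their totals alone, that median was 0.02 for the initiation factors and 0.11 for all genes, and 63.4% of all calls were higher in KO, against 51.3% with TMM scaling. Under both scalings the initiation factors lay below the median of all genes.

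**Figure D1:**
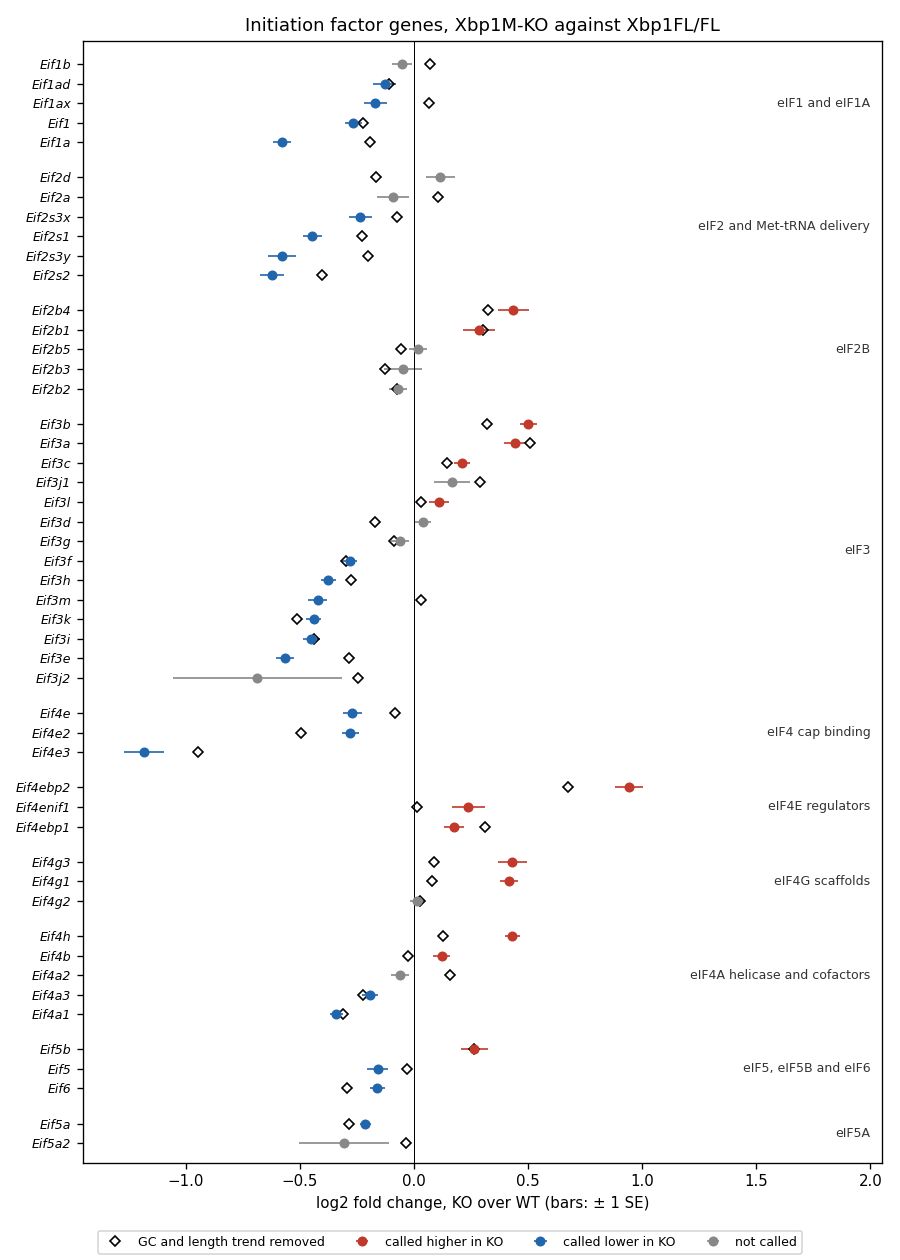
Log2 fold change of each tested initiation factor gene, KO over WT, grouped by role, with bars of 1 SE from edgeR over 3 libraries per genotype. Filled points give the fit as reported and open diamonds the fit after removal of the GC and length trend. Eif4ebp2 lies at 0.94 and Eif4e3 at -1.18, and the other called genes lie between -0.62 and 0.50.

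A trend of fold change with base composition ran through these libraries. The Spearman correlation between log2 fold change and transcript GC content was 0.51 across the 49 initiation factor genes and 0.27 across 12971 genes, as a description, since all genes share the same 6 libraries. The median GC content was 50.2% for the 14 genes higher in KO and 45.7% for the 22 lower in KO, and it was 52.7% and 47.3% for all genes called higher and lower. After a smooth trend with GC and gene length was taken out of each library, the correlation in the 49 genes was 0.09. Then 11 initiation factors were called higher and 19 lower, against 28.2% and 27.5% of all genes. Of the 14 higher genes 9 kept their call and of the 22 lower genes 16 did, and none was called in the other direction. The genes that lost their call were Eif3l, Eif4b, Eif4enif1, Eif4g1 and Eif4g3 among the higher, and Eif1ad, Eif1ax, Eif2s3x, Eif3m, Eif4e and Eif5 among the lower. Eif3j1 and Eif4a2 became higher, and Eif2d, Eif3d and Eif3g became lower. For the initiation factors called in either fit, the value without the trend is given below where it alters the call or moves the change by more than 1.5 times. How much of a change follows base composition and how much follows genotype was not tested beyond this.

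**Figure D2:**
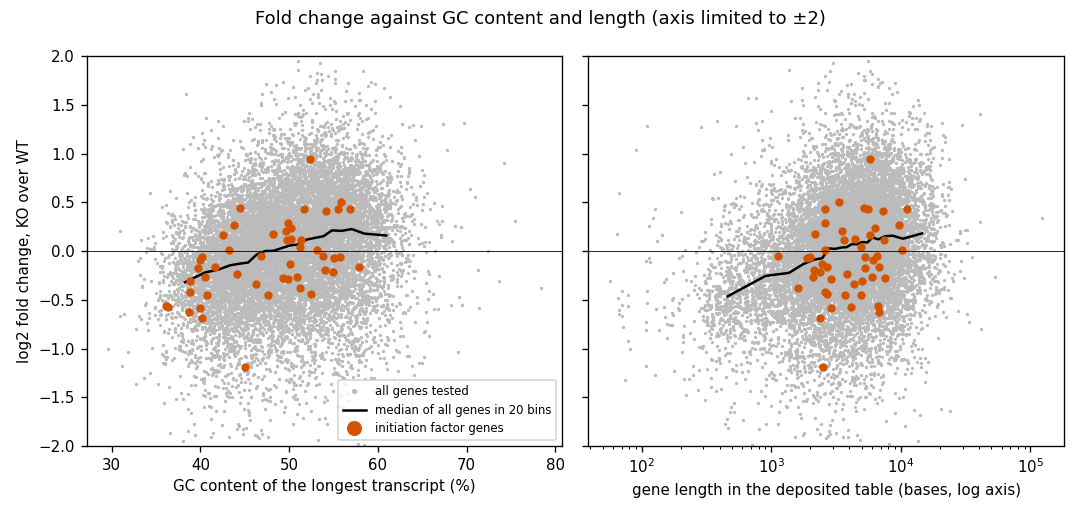
Log2 fold change, KO over WT, of each tested gene (grey) against the GC content of its longest transcript in percent (left) and against gene length in bases on a log axis (right), with the median of all genes in 20 bins as a line and the initiation factors in orange. The initiation factors follow the rise with GC content, with a Spearman correlation of 0.51, and less so with length (0.23).

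Levels per gene length were read from the deposited FPKM values, which carry the authors' own scaling factor per library. Eif5a, which relieves stalled ribosomes and carries a hypusine residue, had the highest level, with a mean of 488 FPKM in KO and 565 FPKM in WT. Eif6, an anti-association factor of the large subunit, followed at 200.1 FPKM in KO and 223 FPKM in WT. Eif4a1 was at 149.8 FPKM in KO and 189 FPKM in WT, and Eif3h at 136 FPKM in KO and 177 FPKM in WT. These 4 genes held the same order in both genotypes. Summed over all 51 genes, the level was 2006, 1987 and 2012 FPKM in KO libraries 1 to 3, against 2236, 2240.4 and 2228 FPKM in WT libraries 1 to 3. In these sums every KO library was below every WT library. The library size behind the FPKM values was 1.04 to 1.05 times the count total in KO and 0.966 to 0.970 times in WT. The gap between the sums therefore depends in part on that scaling. The same holds for the summed levels given below. Sums also weigh the most abundant genes most, and the 4 genes above were all called lower in KO. Of the 49 genes tested, 14 were called higher.

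All 3 tested members of the eIF4E family were called lower in KO, and Eif4ebp1, Eif4ebp2 and Eif4enif1, the 3 tested genes of eIF4E regulators, higher. Without the trend Eif4e and Eif4enif1 were not called. Eif4e3, an atypical cap-binding relative of eIF4E, had the lowest log2 fold change of the 49 genes. It was at 5.38, 5.69 and 5.55 CPM in KO libraries 1 to 3, against 11.4, 12.8 and 13.7 CPM in WT libraries 1 to 3. The KO level was 0.440 times that in WT, a log2 fold change of -1.18 (standard error 0.0882, adjusted p = 5.95e-09 by edgeR). Eif4ebp2, a 4E-BP that binds eIF4E when hypophosphorylated, had the highest. Its level was 27.2, 26.5 and 28.3 CPM in KO, against 14.4, 14.9 and 13.4 CPM in WT, so the groups lay far apart. Its log2 fold change was 0.94 (standard error 0.0615, adjusted p = 1.22e-09 by edgeR), and 0.68 without the trend.

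Eif4ebp1, the main 4E-BP of many tissues and a target of mTORC1, was at 239, 227 and 245 CPM in KO and 225, 200.4 and 204 CPM in WT. The groups did not overlap, but the lowest KO library exceeded the highest WT library only narrowly. The log2 fold change was 0.18 (standard error 0.0430, adjusted p = 0.00197 by edgeR), and 0.31 without the trend. Eif4e, the canonical cap-binding protein, was at 70.6, 64.2 and 66.0 CPM in KO and 77.9, 82.5 and 81.8 CPM in WT. All KO libraries were lower, with a log2 fold change of -0.27 (standard error 0.0427, adjusted p = 3.67e-05 by edgeR). Without the trend it was -0.08 and no longer called (adjusted p = 0.0784). Eif4e2, known as 4EHP, a cap-binding protein that acts in repression, fell to 129, 127 and 125 CPM in KO, against 161, 153 and 147 CPM in WT. Its log2 fold change was -0.28, and -0.49 without the trend. Eif4enif1, the transporter that carries eIF4E to the nucleus, had a log2 fold change of 0.24 (edgeR adjusted p = 0.00957). That call was lost without WT library 2 (0.18, adjusted p = 0.0519) and without the trend (0.01). Its gene overlaps Drg1 on the other strand, and the sources used here do not say whether counting used strand. Eif4e1b, an eIF4E relative of oocytes, had no count in any library. Eif4ebp3 had between 0 and 2 counts per library, which is below the floor of 3 counts, so no fold change is given.

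Ratios within a library do not depend on how libraries were scaled. The 9 ratios computed from the deposited FPKM values were chosen after the values were seen, so they are a description. They do carry the trend with base composition and length, since the genes of a pair differ in both. Eif4ebp2 over Eif4e was 0.399, 0.429 and 0.446 in KO libraries and 0.192, 0.188 and 0.170 in WT libraries, a mean ratio 2.32 times higher in KO. Eif4ebp1 over Eif4e was 9.28, 9.68 and 10.1 in KO and 7.89, 6.65 and 6.83 in WT. On the log2 scale the difference between the fold changes of Eif4ebp2 and Eif4e was 1.21, and 0.76 without the trend, and that of Eif4ebp1 and Eif4e was 0.45, and 0.40 without the trend. Eif4g1 over Eif4e was 1.81, 1.86 and 1.79 in KO and 1.17, 1.12 and 1.103 in WT, a log2 difference of 0.69 that was 0.16 without the trend. In the first pair of ratios the 4E-BP mRNA was more abundant relative to that of eIF4E in every KO library than in any WT library.

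**Figure D3:**
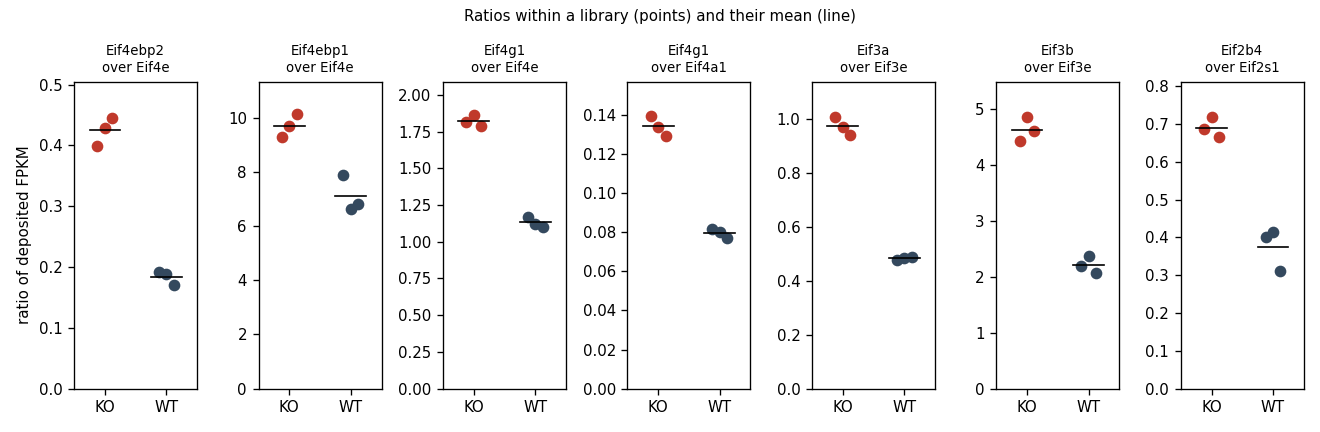
Ratios of deposited FPKM values of 7 pairs of initiation factor genes, with a point for each library, KO left of WT, and a line at the mean of 3 libraries. The ratio of Eif4ebp2 to Eif4e lies between 0.399 and 0.446 in KO and between 0.170 and 0.192 in WT.

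**Figure D4:**
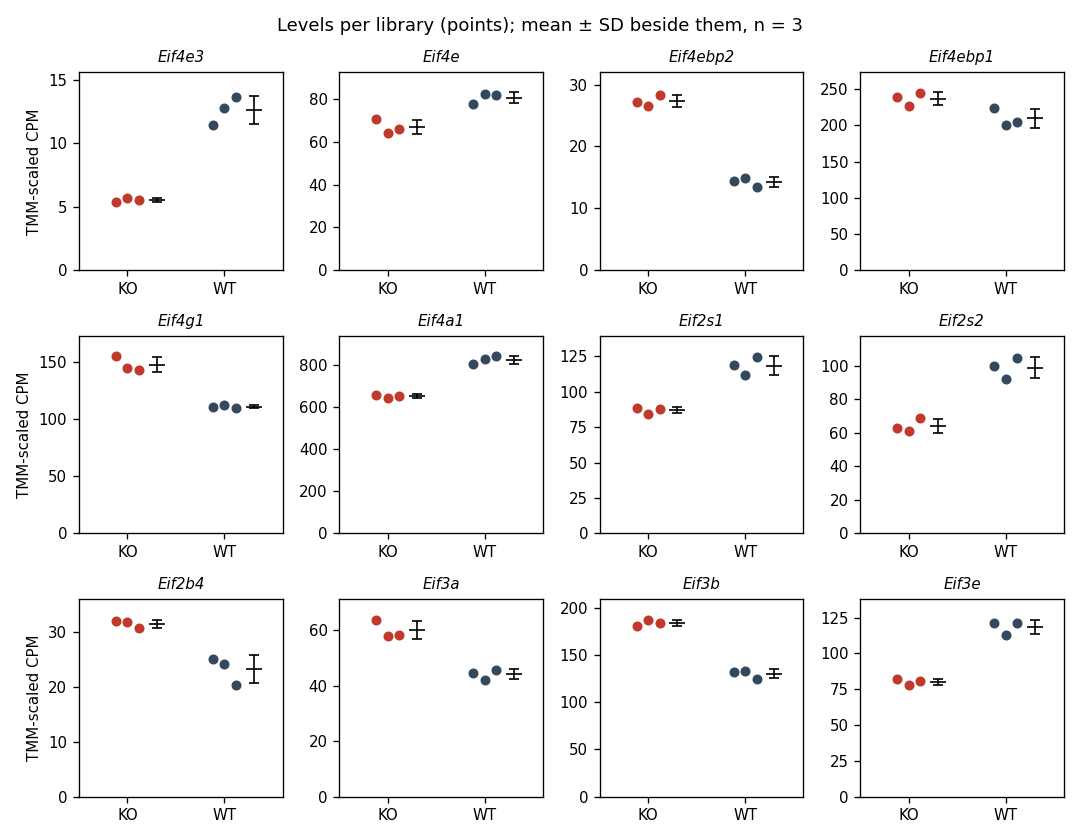
TMM-scaled CPM of 12 initiation factor genes, with a point for each library, KO left of WT, and the mean and SD of 3 libraries beside the points. In each of these genes the KO and WT libraries do not overlap, with the smallest gap for Eif4ebp1.

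Among the eIF4G scaffolds, 2 of 3 were higher in KO and none lower. Eif4g1, the principal scaffold that joins eIF4E, eIF4A and eIF3, was at 155, 145 and 143 CPM in KO libraries 1 to 3, against 111, 112 and 109.7 CPM in WT libraries 1 to 3. The groups were well separated, with a log2 fold change of 0.42 (standard error 0.0378, adjusted p = 6.45e-08 by edgeR). Without the GC and length trend the change was 0.08 and was not called (adjusted p = 0.0700). Eif4g3, its close relative, was at 23.3, 24.7 and 25.9 CPM in KO and 19.7, 17.6 and 17.6 CPM in WT, a log2 fold change of 0.43. This too was not called without the trend (0.09, adjusted p = 0.274). Eif4g2, also called DAP5, which lacks the eIF4E-binding region, was at 525, 511 and 510.1 CPM in KO and 499.8, 505 and 526 CPM in WT, overlapping throughout (log2 fold change 0.01, edgeR adjusted p = 0.695).

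Of the eIF4A helicases and their cofactors, 2 rose, 2 fell and 1 was not called. Eif4a1, the helicase of eIF4F, was at 659.6, 644 and 656 CPM in KO, against 805, 833 and 843 CPM in WT. The groups did not overlap, and the log2 fold change was -0.34 (standard error 0.0281, adjusted p = 2.09e-08 by edgeR). A pseudogene, Eif4a-ps4, is 99.92% identical over 1218 bases and was listed with 5076 to 6437 counts in KO and 6131 to 6382 counts in WT. With the copies summed the change was -0.33. Eif4a3, the helicase of the exon junction complex, also fell (-0.19), a call lost when libraries were scaled by their totals (-0.08, edgeR adjusted p = 0.0665). Eif4a2, the second eIF4A, was not called (-0.06), and was called higher without the trend (0.16). Eif4h, which stimulates eIF4A, rose to 290.2, 302 and 292 CPM in KO, against 223, 217 and 215 CPM in WT. Its log2 fold change was 0.43 (standard error 0.0326, adjusted p = 7.04e-09 by edgeR), and 0.13 without the trend. Eif4b, the other stimulator of eIF4A, was called higher at 0.12, and was at -0.03 and not called without the trend. Within libraries, Eif4g1 over Eif4a1 was 0.140, 0.134 and 0.130 in KO and 0.0816, 0.0801 and 0.0773 in WT, a log2 difference of 0.76 that was 0.39 without the trend.

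Promoters of these genes were searched for the E-box CACGTG and, apart from it, for sites of factors of the unfolded protein and amino acid responses. RefSeq windows (GRCm38.p6) from 250 bases before to 50 after a start site matched 39 of the 51 genes, in 51 windows of 32851 in all. The E-box CACGTG stood in 12 of these 51 windows, or 23.5%, and in 7.15% of all windows. It was found in 10 of the 39 genes, and in 8.09% of all genes with a window. The 10 were Eif3f, Eif3k, Eif4a1, Eif4e and Eif5a, lower in KO, Eif3a, Eif4g1 and Eif4h, higher in KO, and Eif1b and Eif5a2, not called. In Eif5a the same site was counted in overlapping windows. The element TGACGTGG, to which XBP1 and ATF6 are known to bind, was found in Eif3a only, and in 0.676% of all windows. The cyclic AMP element TGACGTCA, the amino acid response sequence TGATGCAA and the endoplasmic reticulum stress element ERSE were in none of the 51 windows, and in 1.79%, 0.895% and 0.119% of all windows. Both strands were searched, and no match of 1 motif overlapped that of another. These are matches of letters and do not show binding.

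The following stretches, of 220 bases ending 31 bases before the start site, are shown because they hold the match in 2 genes higher in KO and 2 lower in KO. Capitals mark CACGTG, except in Eif3a, where they mark TGACGTGG read on the other strand. The positions in the GRCm38.p6 genome are chr19:60790724-60790943 on the minus strand for Eif3a and chr16:20672477-20672696 on the plus strand for Eif4g1. They are chr7:108934165-108934384 on the plus strand for Eif3f and chr11:69672454-69672673 on the minus strand for Eif4a1.
Eif3a: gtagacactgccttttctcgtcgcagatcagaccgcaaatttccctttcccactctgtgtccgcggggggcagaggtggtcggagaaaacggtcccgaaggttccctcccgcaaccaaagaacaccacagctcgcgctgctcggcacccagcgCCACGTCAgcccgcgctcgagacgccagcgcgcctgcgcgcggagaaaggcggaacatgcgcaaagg
Eif4g1: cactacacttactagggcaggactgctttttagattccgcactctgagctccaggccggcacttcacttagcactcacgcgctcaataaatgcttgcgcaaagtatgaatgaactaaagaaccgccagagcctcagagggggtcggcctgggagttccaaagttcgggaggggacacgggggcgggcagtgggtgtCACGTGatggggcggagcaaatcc
Eif3f: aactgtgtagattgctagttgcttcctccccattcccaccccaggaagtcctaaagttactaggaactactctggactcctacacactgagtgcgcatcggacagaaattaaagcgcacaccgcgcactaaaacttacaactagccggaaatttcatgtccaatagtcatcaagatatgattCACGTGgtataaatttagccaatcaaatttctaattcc
Eif4a1: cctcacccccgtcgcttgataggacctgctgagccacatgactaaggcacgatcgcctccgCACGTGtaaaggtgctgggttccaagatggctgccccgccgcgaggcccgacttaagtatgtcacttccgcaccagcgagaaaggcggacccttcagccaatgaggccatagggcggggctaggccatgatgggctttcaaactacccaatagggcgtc
The match begins at position -97 from the start site in Eif3a, -54 in Eif4g1, -68 in Eif3f and -189 in Eif4a1.

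The eIF3 complex, which bridges the mRNA and the small ribosomal subunit, changed in both directions. Of 14 genes, 4 were higher in KO, 6 lower and 4 not called, while 31.5% of all genes were called higher and 29.8% lower. The summed level of the 14 was 478, 478 and 487 FPKM in KO libraries against 550.4, 545 and 551 FPKM in WT libraries. Eif3b, a scaffold of the complex, was at 181, 188 and 185 CPM in KO and 133, 134 and 125 CPM in WT. The groups were separate, with a log2 fold change of 0.50 (standard error 0.0362, adjusted p = 4.18e-09 by edgeR), and 0.32 without the trend. Eif3a, the largest subunit, was at 63.9, 58.1 and 58.3 CPM in KO and 44.7, 42.2 and 45.8 CPM in WT. No WT library reached a KO library, and the log2 fold change was 0.44 (standard error 0.0477, adjusted p = 5.17e-07 by edgeR). Eif3c, a subunit that contacts eIF1 and eIF5, was at 112, 111 and 109 CPM in KO and 94.6, 94.9 and 97.9 CPM in WT (0.21). Eif3a, Eif3b and Eif3c kept their calls without the trend. Eif3l had a change of 0.11 (edgeR adjusted p = 0.0367), which was not called without WT library 2, KO library 2 or KO library 3 (0.08, 0.10 and 0.10), without the trend (0.03) or with DESeq2 (0.10).

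Among the 6 lower subunits, Eif3e changed most. It was at 82.0, 77.6 and 80.5 CPM in KO, against 121, 113 and 121 CPM in WT. The log2 fold change was -0.57 (standard error 0.0395, adjusted p = 2.83e-09 by edgeR), and -0.28 without the trend. Eif3i, a WD-repeat subunit, was at 106, 105 and 99.4 CPM in KO and 138, 141 and 145 CPM in WT (-0.45). Eif3k, a small subunit that pairs with Eif3l, was at 156, 152 and 161 CPM in KO and 212, 211 and 213 CPM in WT (-0.44). In both genes the groups were separate and the change was of like size without the trend, at -0.44 for Eif3i and -0.51 for Eif3k. Eif3h, one of a pair of subunits with an MPN domain, was at 219, 218 and 227 CPM in KO and 289, 280.4 and 292 CPM in WT (-0.38). Eif3f, the other MPN subunit, was at 117, 118 and 119 CPM in KO and 141, 142 and 148 CPM in WT (-0.28). Eif3m, a PCI-domain subunit, was at 45.0, 42.7 and 44.9 CPM in KO and 57.7, 59.2 and 60.8 CPM in WT. Its change of -0.42 was the one most altered by the trend among the lower subunits, to 0.03 (edgeR adjusted p = 0.526).

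Of the subunits not called, Eif3d had a log2 fold change of 0.04, Eif3g of -0.06 and Eif3j1 of 0.17. All 3 were called without the trend, at -0.17 for Eif3d, -0.09 for Eif3g and 0.29 for Eif3j1. Without WT library 3, Eif3g was called at -0.10 (edgeR adjusted p = 0.0224), and without WT library 2, Eif3j1 at 0.24 (edgeR adjusted p = 0.0202). Eif3j1 and Eif3j2 are 99.41% identical over 2379 bases, so reads could be split between them. Eif3j2 was at 1.38, 1.94 and 1.18 CPM in KO and 3.01, 0.724 and 3.49 CPM in WT, so that WT library 2 stood below all KO libraries. Its change was -0.69 (edgeR adjusted p = 0.1198), -0.24 without the trend, and -1.11 without WT library 2 (edgeR adjusted p = 3.24e-04). Summed with Eif3j1 the change was 0.07. Eif3j1 also overlaps Spg11 on the other strand. Within libraries, Eif3a over Eif3e was 1.01, 0.972 and 0.941 in KO and 0.479, 0.485 and 0.490 in WT. Eif3b over Eif3e was 4.43, 4.86 and 4.61 in KO and 2.20, 2.38 and 2.07 in WT. Both ratios were higher in every KO library, with means 2.01 and 2.09 times those in WT. Without the trend the log2 differences were 0.79 for Eif3a over Eif3e, against 1.01 with it, and 0.61 for Eif3b over Eif3e, against 1.07 with it.

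**Figure D5:**
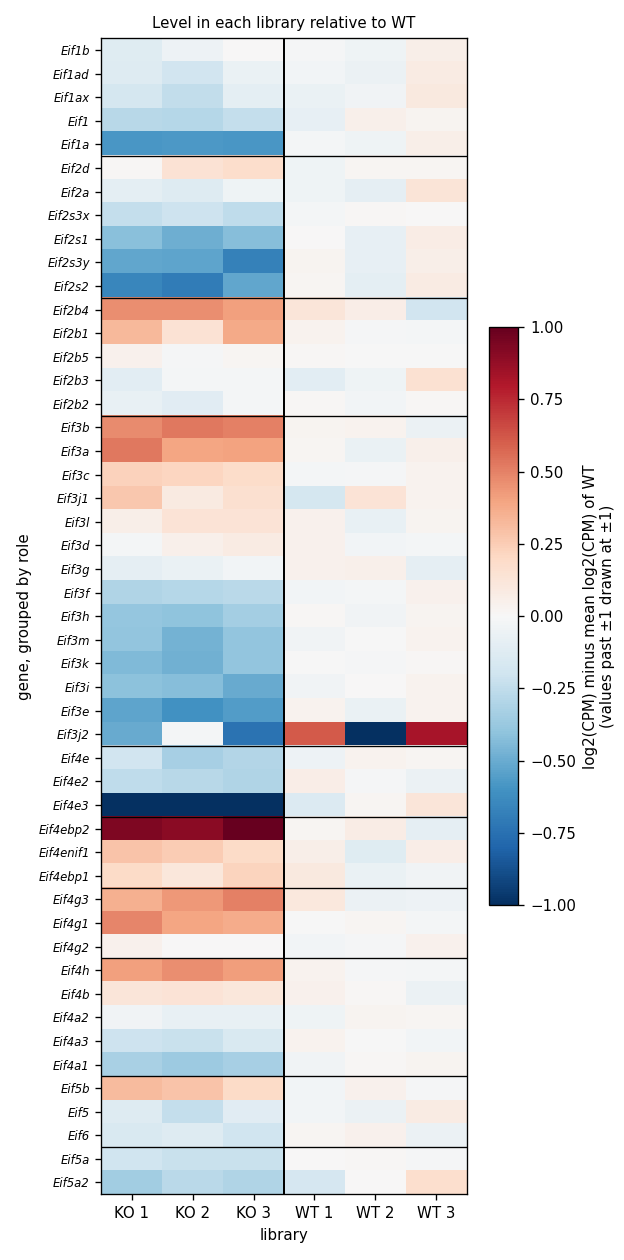
Log2 CPM of each tested initiation factor gene in every library minus its mean over the 3 WT libraries, with KO libraries left of WT libraries, genes grouped by role, and differences past 1 drawn at 1. Within eIF3, Eif3a and Eif3b are red in all 3 KO libraries and Eif3e, Eif3i and Eif3k blue, while Eif3j2 varies among the WT libraries.

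The genes of eIF2 were lower in KO. Of 6 genes in the group of eIF2 and the related delivery factors, 4 fell and 2 were not called, and the group summed to 42.5, 41.8 and 43.2 FPKM in KO against 57.2, 54.6 and 59.7 FPKM in WT. Eif2s1 encodes the alpha subunit, the one phosphorylated under stress. It was at 88.4, 84.4 and 87.9 CPM in KO and 119, 112 and 125 CPM in WT, with no overlap. The log2 fold change was -0.45 (standard error 0.0419, adjusted p = 9.69e-08 by edgeR), and -0.23 without the trend. Eif2s2, the beta subunit, was at 62.6, 60.8 and 68.9 CPM in KO and 99.6, 92.0 and 104 CPM in WT. All KO libraries were again lower, with a change of -0.62 (standard error 0.0518, adjusted p = 2.32e-08 by edgeR), which was -0.40 without the trend and -0.61 with near-identical copies summed.

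The gamma subunit, which binds GTP and the tRNA, has an X-linked and a Y-linked gene. Eif2s3y was at 19.8, 19.7 and 17.8 CPM in KO and 28.9, 26.8 and 29.6 CPM in WT, a log2 fold change of -0.58 (standard error 0.0616, adjusted p = 4.49e-07 by edgeR), and -0.20 without the trend. Eif2s3x was at 24.6, 25.1 and 24.4 CPM in KO and 28.8, 29.4 and 29.2 CPM in WT (-0.24), and at -0.08 and not called without the trend (adjusted p = 0.196). Both genes were thus lower in each KO library, and the ratio of Eif2s3y to Eif2s3x was 0.737, 0.718 and 0.669 in KO and 0.921, 0.837 and 0.930 in WT, a log2 difference of -0.34 that was -0.12 without the trend. Other Y-linked genes, chosen after their values were seen, did not all follow. Ddx3y fell (-0.69, edgeR adjusted p = 1.19e-07, and -0.36 without the trend), while Uty (-0.22, adjusted p = 0.0820, and 0.02 without the trend) and Kdm5d (0.30, adjusted p = 0.0568) were not called. Xist, which is transcribed from the inactive X of female cells, had at most 0.0301 CPM in any library. Eif2a and Eif2d, factors that can deliver tRNA without eIF2, had changes of -0.09 and 0.12 and were not called. Without the trend Eif2d was called lower (-0.17). Eif2a overlaps Serp1 and Eif2d overlaps Rassf5 on the other strand.

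No gene of eIF2B was called lower in KO, with or without the trend. Of 5 subunits 2 rose and 3 were not called, and the group summed to 82.2, 79.5 and 83.5 FPKM in KO and 80.2, 78.7 and 78.1 FPKM in WT. Eif2b4, the delta subunit, was at 31.9, 31.8 and 30.6 CPM in KO and 25.1, 24.2 and 20.3 CPM in WT. The groups were separate, and the log2 fold change was 0.44 (standard error 0.0674, adjusted p = 2.88e-05 by edgeR). It overlaps Snx17 on the other strand, which had 5161 to 6665 counts in KO and 3996 to 4894 counts in WT. Reads of the 2 genes cannot be told apart where they overlap if strand was not used. Eif2b1, the alpha subunit, was at 19.3, 17.0 and 19.98 CPM in KO and 15.7, 15.3 and 15.2 CPM in WT (0.29, edgeR adjusted p = 0.00189). Eif2b5, the catalytic subunit, was at 53.2, 51.1 and 52.1 CPM in KO and 52.0, 51.3 and 51.4 CPM in WT. These values overlapped, and the change was 0.02 (standard error 0.0392, adjusted p = 0.732 by edgeR). Eif2b2 and Eif2b3 had changes of -0.07 and -0.05. Within libraries, Eif2b4 over Eif2s1 was 0.687, 0.718 and 0.664 in KO and 0.402, 0.413 and 0.310 in WT, a log2 difference of 0.88 that was 0.55 without the trend.

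Of 5 genes in the group of eIF1, eIF1A and related proteins, 4 were called lower in KO. Without the trend only Eif1 and Eif1a were called lower. Eif1, which keeps the scanning ribosome open until the start codon is found, was at 223, 222 and 229.6 CPM in KO and 256, 280.4 and 275 CPM in WT. The groups were separate, with a log2 fold change of -0.27 (standard error 0.0370, adjusted p = 9.50e-06 by edgeR). Eif1a, a gene for eIF1A, which binds the decoding site beside eIF1, was at 51.2, 51.5 and 51.1 CPM in KO and 75.6, 74.5 and 79.7 CPM in WT. Its log2 fold change was -0.58 (standard error 0.0395, adjusted p = 2.09e-09 by edgeR), and -0.19 without the trend. Eif1ax, the X-linked eIF1A gene, was called at -0.17, and was not called without WT library 3 (-0.12), without KO library 2 (-0.13), without the trend (0.07) or with library totals (-0.05). Eif1ad, which encodes an eIF1A domain protein, was called at -0.13 (edgeR adjusted p = 0.0409). It was not called without WT library 1 (-0.14), WT library 3 (-0.09), KO library 1 (-0.12) or KO library 2 (-0.09), nor without the trend (-0.11), with library totals (-0.01), with DESeq2 (-0.14) or with no expression filter (-0.10). A transcript of Eif1ad shares 428 identical bases with Banf1, a gene on the other strand. Banf1 had 3573 to 4761 counts in KO and 4330 to 5081 counts in WT. Reads of that stretch cannot be told apart if strand was not used. Eif1b, an eIF1 paralog, was not called (-0.05).

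Of the later factors, Eif5 and Eif6 were lower and Eif5b higher in KO. Eif5, the GTPase-activating protein of eIF2, was at 66.8, 62.0 and 67.7 CPM in KO and 71.8, 70.3 and 77.2 CPM in WT (-0.16, edgeR adjusted p = 0.00664). The gap between the groups was narrow, and the call was lost without KO library 2 (-0.12, edgeR adjusted p = 0.0585), without the trend (-0.03) and with library totals (-0.04). Eif5b, the GTPase that joins the subunits, was at 24.6, 24.1 and 22.6 CPM in KO and 19.3, 20.3 and 19.5 CPM in WT (0.27, edgeR adjusted p = 8.26e-04). It overlaps Rev1 on the other strand. Eif6 was at 546, 557 and 529 CPM in KO and 615, 624 and 584 CPM in WT (-0.16, edgeR adjusted p = 4.16e-04), and at -0.29 without the trend. With library totals it was -0.05 and not called (edgeR adjusted p = 0.254). Eif5a was at 1182, 1163 and 1159 CPM in KO and 1358, 1361 and 1341 CPM in WT, with no overlap (-0.21, SE 0.0244, edgeR adjusted p = 1.03e-06). Eif5a2, its paralog, was at 1.32, 1.40 and 1.36 CPM in KO and 1.49, 1.69 and 1.89 CPM in WT. Its groups did not overlap, but the change of -0.31 was not called (edgeR adjusted p = 0.188), and was -0.03 without the trend.

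Genes that regulate or follow initiation were read from the same fit. The counts of each list stand beside 31.5% of all genes called higher and 29.8% lower, and 28.2% and 27.5% without the trend. Of 7 kinases and phosphatase subunits that act on eIF2 alpha, 4 were higher, 1 lower and 2 not called. Without the trend 2 were higher and 2 lower, with Eif2ak1, a heme-regulated kinase, among those that lost their call (0.21, and 0.05 without the trend). Eif2ak3, which encodes PERK, was at 2.77, 3.04 and 3.05 CPM in KO and 1.08, 1.06 and 1.28 CPM in WT. The KO level was 2.60 times that in WT, a log2 fold change of 1.38 (standard error 0.177, adjusted p = 3.88e-06 by edgeR). Eif2ak2, the kinase gene called lower, was at 49.2, 48.0 and 49.9 CPM in KO and 72.9, 72.2 and 75.6 CPM in WT. Its log2 fold change was -0.58 (edgeR adjusted p = 1.65e-09), and -0.49 without the trend. Eif2ak4, which encodes the amino acid sensor GCN2, was at 0.60 (edgeR adjusted p = 0.00852), and at 0.36 and not called without the trend (adjusted p = 0.0958). Ppp1r15a, which encodes GADD34, the inducible phosphatase subunit, was at 54.0, 51.1 and 49.3 CPM in KO and 53.4, 52.5 and 50.5 CPM in WT. Its groups overlapped (-0.02, edgeR adjusted p = 0.712), while without the trend it was called at -0.16.

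Of 17 partners and regulators of the cap complex, 9 were higher, 2 lower and 6 not called. Without the trend 8 were higher and 3 lower, and they were not the same genes. Paip2 was called lower (-0.25) and, without the trend, higher (0.14), Rptor (0.37, then -0.06), Mknk1 (0.26, then 0.04) and Rps6kb2 (0.17, then 0.08) lost their calls, Mtor and Pabpc4 became lower (-0.29 and -0.36) and Paip1 higher (0.46). Mknk2, a kinase of eIF4E, had a log2 fold change of 0.90 (edgeR adjusted p = 1.27e-10), and Dhx29, a helicase of the scanning ribosome, of 0.91 (edgeR adjusted p = 3.09e-06). Pabpc1, the poly(A)-binding protein that contacts eIF4G, was at 0.15 (edgeR adjusted p = 5.54e-04). Of 6 recycling and start-site accessory factors, 1 was higher and 5 lower. Without the trend 2 were higher and 2 lower, with Mcts1 called lower (-0.36) and then higher (0.19), and Abce1 and Bzw1 no longer called. The largest changes there were those of Abcf1, an ABC protein that associates with eIF2 (0.59, and 0.34 without the trend), and Bzw2, an eIF5 mimic (-0.53). Of 8 elongation genes 2 were higher, 5 lower and 1 not called. Without the trend 3 were higher and 3 lower, with Eef1a1 called lower (-0.08) and then higher (0.05), and Eef1e1 no longer called. Eef1b2, the exchange factor of eEF1A, fell by 0.65 on the log2 scale (edgeR adjusted p = 1.61e-10), and Eefsec, the selenocysteine elongation factor, rose by 0.56. Eef2, the translocase, rose by 0.32 (edgeR adjusted p = 6.09e-08), and by 0.14 without the trend. Of 4 tested termination genes of 5, 2 were higher and 1 lower, with and without the trend. Etf1, the release factor eRF1, fell by 0.51 (edgeR adjusted p = 7.80e-09), and Pelo, a ribosome rescue factor, rose by 0.43 (edgeR adjusted p = 0.0256).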

How the data were processed

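Raw counts of reads per gene, as the columns are named per the file headers, were used as the authors deposited them. The deposited FPKM values (fragments relative to gene length and to a library size) were computed by the authors. They were used to compare levels between genes, for sums over groups of genes in each library, and for ratios within a library. The library size they imply was 1.04 to 1.05 times the count total in KO and 0.966 to 0.970 times in WT, so they carry a scaling factor per library. Signal columns, deposited by the authors as a mean normalized count per genotype, were not used. The deposited log2 fold changes and the deposited p-values are the authors' own. For the 49 members tested the deposited log2 values had the direction found here and differed by at most 0.00964. The submitters' processing notes name Bowtie 0.12.2 and 2 builds, mm8 and mm10, without saying what each was for. The sources used here name no read counter and no strand setting.

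Genotypes were compared with edgeR 4.0.16 (R 4.3.3), quasi-likelihood test, TMM scaling and filterByExpr, which left 13080 genes, with Benjamini-Hochberg adjustment over all of them and a threshold of 0.05. The fit was tested on simulated data of 13080 genes. It recovered 65% of 100 genes changed 1.5-fold and 77% of 100 changed 2-fold, with 14 false calls. Smaller changes were not simulated. Standard errors were obtained as the size of the log2 fold change over the root of the F statistic. Alternatives were DESeq2 1.42.0, other scalings, no filter, each library left out, a replicate block, summed near-identical copies and removal of a GC and length trend. That trend was fitted per library with natural splines (5 degrees of freedom for each variable) on the GC content of the longest GENCODE vM21 transcript and on gene length, for 12971 of the genes tested. Copies were found with blastn 2.17.0 (at least 95% identity over 200 bases) and counts were summed for 15 members. Positions are those of the deposited table and were identical in vM21 (mm10) for 48 of 51 members.

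The genes described at length comprise up to 10 genes at either end of the log2 fold changes among called members whose groups did not overlap, 11 core factors whatever their result, and per related list the 2 largest called changes and a few fixed genes. Members, lists and tests were chosen with earlier results of these data known. Library totals were 31976748 to 42448058 counts, at which 3 counts equal 0.0682 to 0.0960 CPM. Library pairs of 1 genotype differed by more than sampling noise (chi-square per degree of freedom 2.77 to 6.29), so none was counted as a duplicate.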

Additional observations from a re-analysis of the deposited data

How the results depend on the processing

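With 3 libraries a genotype, 14 alternatives were run, and 24 of the 49 genes kept direction and side of the threshold in all of them. The same replicate number in KO and WT marks no shared animal or batch in the labels, and the correlations of same-numbered libraries were -0.0368, 0.0355 and 0.0362, so the numbers were not taken as pairs. The replicate block gave 14 higher and 22 lower with a median of -0.09, and changed no call. DESeq2 gave 13 higher and 21 lower, and size factors of DESeq2 in edgeR 14 and 22. Without an expression filter 15 were higher and 22 lower. Leaving out each library in turn gave 13 to 14 higher, 19 to 23 lower and a median of -0.131 to -0.0689, and 39 genes kept their result throughout. Library totals as the scaling gave 19 higher and 17 lower with a median of 0.0231, and turned the uncalled Eif3g (0.0540), Eif2b2 (0.0456), Eif4a2 (0.0546), Eif1b (0.0621), Eif2a (0.0231) and Eif2b3 (0.0675). It ended the calls of Eif6, Eif4a3, Eif5, Eif1ax and Eif1ad and called Eif4g2, Eif3d, Eif2b5, Eif2d and Eif3j1 higher. Removing the GC and length trend turned Eif3d (-0.17), Eif4b (-0.0271), Eif4a2 (0.16), Eif1b (0.0721), Eif2b5 (-0.0588), Eif3m (0.0298), Eif1ax (0.0679), Eif2d (-0.17) and Eif2a (0.11). With the replicate block in the same fit they were Eif3d -0.17, Eif4b -0.0264, Eif4a2 0.16, Eif1b 0.0705, Eif2b5 -0.0589, Eif3m 0.0299, Eif1ax 0.0660, Eif2d -0.17 and Eif2a 0.11, with 11 higher and 18 lower. Summing copies turned Eif3j2 (0.0749). With each library left out in turn the uncalled Eif4g2 ranged from -0.000274 to 0.0372, turned without WT replicate 1, and the uncalled Eif2b3 from -0.101 to 0.0296, turned without WT replicate 3. The cause of these turns was not tested. Depth limits Eif4e1b and Eif4ebp3, for which a level below 3 counts could not be read.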
